A study of Mus musculus with 79 samples.

Results

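The Zic genes encode the ZIC family of transcription factors, and the 4 described here, Zic1, Zic2, Zic4 and Zic5, are the genes of that name that form head-to-head pairs, of 25965 genes in the RNA-seq table. All 4 passed the filter on low values that 17839 genes passed. Expression was measured by RNA-seq and 3 histone marks by ChIP-seq in the hypothalamus of C57BL/6Babr mice aged about 14 weeks. Wild-type animals (+/+) were compared with Δ/D329A animals, whose only functional copy of the DNA methyltransferase gene Dnmt3a carried the D329A substitution in the PWWP domain. The maternal copy (Δ) lacked exon 18, having been removed in the oocyte by Cre under the Zp3 promoter, so that every cell of the animal carried both alleles. The RNA-seq set held 5 +/+ and 4 Δ/D329A libraries, and each mark and its input held 3 and 3. Within each assay and mark, each library came from a separate animal. Per the study, every ChIP-seq sample was used for all 3 marks and for input, so the marks were not read in independent animals.

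The study describes the ChIP-seq animals as male, and the RNA-seq animals as female in one legend and, beside the ChIP-seq tracks, as male in another. Xist, the non-coding RNA of the inactive X chromosome, had between 2694 and 7044 reads in all 9 RNA-seq libraries, and the X chromosome had between 0.415 and 0.429 times the autosomal input signal in all 6 input libraries. These values place the RNA-seq libraries in females and the ChIP-seq libraries in males, so expression and marks of the Zic genes were read in different animals. RNA-seq libraries were scaled to between 10519195 and 18386073 reads, and ChIP-seq libraries held between 12676361 and 30207876 uniquely mapped reads. All 16 markers of hypothalamic neurons were detected, with a summed level of 427 to 894 RPKM (reads per kilobase of exon per 1000000 reads) in +/+ and 483 to 704 RPKM in Δ/D329A. Dnmt3a itself had a mean level of 1.91 ± 0.16 on the log2 RPKM scale (SD) over the 5 +/+ libraries and of 1.63 ± 0.09 over the 4 Δ/D329A libraries. Its difference of -0.28 had an adjusted p of 0.355 (limma), and the table counts all exons together, so that this level does not check the exon 18 deletion.

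ZIC proteins are zinc finger transcription factors related to the GLI factors that end the Hedgehog pathway. They act in the dorsal neural tube, the neural crest, the cerebellum and the midline of the forebrain, and loss of human ZIC2 is a known cause of holoprosencephaly. In mammals Zic1 lies head to head with Zic4 and Zic2 head to head with Zic5. Genes of this kind are commonly covered by H3K27me3, the mark laid down by Polycomb repressive complex 2, where they are little used. H3K4me3 marks promoters that are active or poised, and H3K36me3 marks the bodies of transcribed genes. Per the study, the PWWP domain of DNMT3A binds H3K36me2 and H3K36me3 in vitro. It also cites work in mouse embryonic stem cells in which DNMT3B, and not DNMT3A, recognised H3K36me3 through this domain.

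In GRCm38, the build of the deposited tables, Zic1 spans chr9:91358058-91365810 on the minus strand and Zic4 chr9:91362413-91389348 on the plus strand. The annotated spans overlap, and 60 bp of exon are shared, which is 1.05% of the exon length of Zic1 and 0.581% of that of Zic4. The study describes its RNA-seq libraries as made with a strand-specific kit, but whether reads were counted by strand is not given in the sources used here, so the counting may have given reads in that stretch to either gene. Zic5 spans chr14:122456795-122465677 on the minus strand and Zic2 chr14:122475435-122479852 on the plus strand. The RefSeq start of Zic1 lies 137 bp from that of Zic4, and the RefSeq starts of Zic2 and Zic5 lie 9726 bp apart. For Zic4 the start in the gene table lies 3218 bp upstream of the RefSeq start, so both starts were used for promoters.

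Around the RefSeq starts (1500 bp before to 500 bp after) the 4 promoters differed in CpG number, the dinucleotide on which DNMT3A acts. Zic2 held 184 CpG and Zic4 held 155, at the percentiles 99.4 and 97.7 of 25930 promoters whose median was 46.5. Zic1 held 79 and Zic5 held 58, both above that median. The stretches just upstream of Zic1 and Zic5 are shown because they lie within the promoters at which the marks were quantified and outside annotated exons. They are taken from RefSeq (GRCm38.p6) and trimmed to the bases outside every annotated exon, and are printed 5′ to 3′ on the strand of the gene with each CpG in capitals.
Zic1, chr9:91365811-91366018, minus strand: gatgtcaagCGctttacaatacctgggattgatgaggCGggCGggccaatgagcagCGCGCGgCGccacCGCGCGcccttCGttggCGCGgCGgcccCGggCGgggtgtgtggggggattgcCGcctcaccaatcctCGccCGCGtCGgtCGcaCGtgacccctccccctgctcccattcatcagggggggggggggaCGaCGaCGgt
Zic5, chr14:122465678-122465908, minus strand: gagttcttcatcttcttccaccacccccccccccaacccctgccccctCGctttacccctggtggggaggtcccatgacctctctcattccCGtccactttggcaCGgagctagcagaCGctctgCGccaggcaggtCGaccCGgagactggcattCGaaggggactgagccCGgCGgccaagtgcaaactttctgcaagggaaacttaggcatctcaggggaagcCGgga
The Zic1 stretch of 208 bases holds 26 CpG and the Zic5 stretch of 231 bases holds 11. In the 250 bases before the RefSeq start the counts were 27 for Zic1, 11 for Zic5 and 4 for Zic4, against a median of 6 over 32851 RefSeq promoters.

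All 4 Zic genes had a higher mean level in Δ/D329A than in +/+, by between 1.49-fold for Zic4 and 1.93-fold for Zic5, but none passed the call over all genes (limma on log2 RPKM, adjusted p under 0.01). Of all 17839 genes tested, 19 were called, which is 0.107%, with 15 higher (0.0841%) and 4 lower (0.0224%) in Δ/D329A, or 16 and 16 after quantile normalization. The difference had an unadjusted p under 0.05 for 4 of 4 Zic genes, where 7.62% of all genes did. It held for 3 of 4 after median centring (13.8% of all genes), for 2 of 4 after quantile normalization (15.1%), and for 3 of 4 without +/+ replicate 3 or 4 or Δ/D329A replicate 1 or 2. Zic4 was the member lost in each case, joined by Zic5 after quantile normalization. The median difference over the 4 genes was 0.72 on the log2 scale, where that over all genes tested was 0.06. In bulk tissue a larger number of expressing cells and more RNA per cell cannot be told apart.

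Zic1, the most highly expressed member and a factor of cerebellar and dorsal neural development, had 5.86, 5.64, 6.81, 4.75 and 5.66 RPKM in the 5 +/+ libraries. The 4 Δ/D329A libraries had 11.4, 9.52, 7.03 and 9.14 RPKM. Every Δ/D329A library lay above every +/+ library, and replicate 3 was the lowest of its group, just above the highest +/+ value. On the log2 scale the means were 2.51 ± 0.19 (SD, n = 5) and 3.19 ± 0.29 (n = 4), a difference of 0.68 (SE 0.16, adjusted p = 0.235, limma), and the exact two-sided permutation p was 0.00794, the smallest that 5 against 4 allow. Over all genes, 1.78% were higher in Δ/D329A without overlap. The difference rested on between 419 and 946 reads per library, and DESeq2 on the recovered reads called it (adjusted p = 0.00319), whereas edgeR did not (adjusted p = 0.0406).

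Zic4, the head-to-head partner of Zic1, was at 0.474, 0.532, 0.484, 0.499 and 0.631 RPKM in +/+. In Δ/D329A it was at 0.892, 1.13, 0.582 and 0.617 RPKM. Replicates 1 and 2 lay above all +/+ libraries, and replicates 3 and 4 lay within their range. The log2 means were -0.94 ± 0.17 (n = 5) and -0.37 ± 0.45 (n = 4), a difference of 0.57 (SE 0.23, adjusted p = 0.355, limma; exact permutation p = 0.0317). Reads per library ranged from 67 to 135.

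Zic2, known for its part in forebrain midline development and in the axons of uncrossed retinal neurons, was at 2.96, 1.95, 2.39, 1.77 and 2.74 RPKM in +/+. In Δ/D329A it was at 5.53, 4.82, 3.74 and 2.40 RPKM. The first 3 Δ/D329A libraries exceeded every +/+ library, and replicate 4 lay within the +/+ range. The log2 means were 1.21 ± 0.32 (n = 5) and 1.98 ± 0.53 (n = 4), a difference of 0.76 (SE 0.25, adjusted p = 0.355, limma; exact permutation p = 0.0476).

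Zic5, the partner of Zic2 and a factor of neural crest development, was at 0.278, 0.275, 0.382, 0.422 and 0.376 RPKM in +/+. In Δ/D329A it was at 0.657, 1.42, 0.523 and 0.386 RPKM. Replicate 2 was the highest library and replicate 4 lay within the +/+ range. The log2 means were -1.55 ± 0.29 (n = 5) and -0.60 ± 0.80 (n = 4), a difference of 0.95 (SE 0.34, adjusted p = 0.355, limma; exact permutation p = 0.0159), on only 21 to 73 reads per library.

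**Figure D1:**
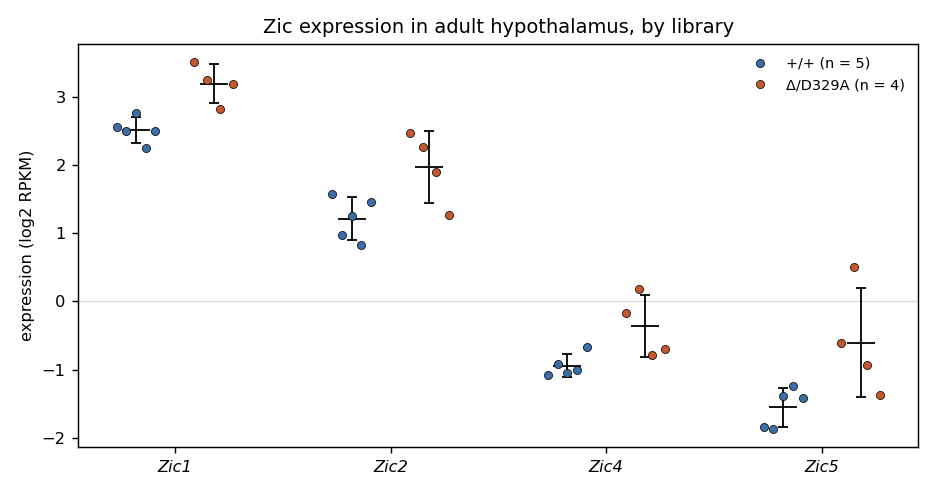
Expression of the 4 Zic genes by library on the log2 RPKM scale, with +/+ in blue (n = 5) and Δ/D329A in orange (n = 4). Points are libraries, horizontal bars are means and vertical bars are 1 SD. Zic1 is the member whose genotypes do not overlap, and Zic2, Zic4 and Zic5 have 3, 2 and 3 of 4 Δ/D329A libraries above the +/+ range.

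The order of the levels, per length, was Zic1, Zic2, Zic4 and Zic5 in both genotypes. Zic1 stood 1.30 ± 0.26 log2 units (SD, n = 5) above Zic2 in +/+, and Zic2 stood 2.15 ± 0.34 above Zic4. Zic4 stood 0.61 ± 0.30 above Zic5 in +/+, without overlap, whereas in Δ/D329A the gap was 0.24 ± 0.43 (n = 4) and the ranges overlapped, so that these neighbours did not differ there beyond their spread. Zic1 was at the percentile 79.5 and Zic2 at 57.6 of the genes tested, whereas Zic4 was at 30.2 and Zic5 at 26.8.

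The ratio within each head-to-head pair was close in both genotypes. The log2 ratio of Zic1 to Zic4 was 3.45 ± 0.27 (SD, n = 5) in +/+ and 3.56 ± 0.35 (n = 4) in Δ/D329A, a difference of 0.10 (exact permutation p = 0.611). That of Zic2 to Zic5 was 2.76 ± 0.48 and 2.58 ± 0.57, a difference of -0.19 (exact permutation p = 0.611). With this spread a modest shift of either ratio would not have been detectable.

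Markers of the thalamus, which borders the hypothalamus, also stood higher in Δ/D329A. All 13 thalamic markers, among them the transcription factors Tcf7l2, Lef1, Gbx2 and Rora, had a positive log2 difference. The median was 0.74 and none was called. Of these markers 10 had an unadjusted p under 0.05 (limma), where 7.62% of all genes did. Their summed level was 38.8, 33.1, 38.1, 26.6 and 33.8 RPKM in +/+ and 81.4, 55.4, 41.9 and 61.1 RPKM in Δ/D329A, without overlap (exact permutation p = 0.00794). The marker list was chosen with earlier results of these data known. These counts and the p of the sum are therefore a description and not an independent test. The library with the highest thalamic sum, Δ/D329A replicate 1, also had the highest Zic1 and Zic2 levels, and the Δ/D329A library with the lowest sum, replicate 3, had the lowest Zic1 level of its group. The other members did not follow this order. Replicate 4, with the second highest sum, had the lowest Zic2 and Zic5 levels of its group, and Zic4 and Zic5 were highest in replicate 2.

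Relative to the thalamic sum, a measure chosen after these values were seen, Zic1 did not stand higher in Δ/D329A. It amounted to between 15.1% and 17.9% of that sum in +/+ and between 13.9% and 17.2% in Δ/D329A, and the log2 ratio differed by -0.11 (exact permutation p = 0.214). The corresponding differences were -0.03 for Zic2, -0.21 for Zic4 and 0.16 for Zic5, each with overlapping genotypes and an exact permutation p of 0.397 or more. On the log2 RPKM scale the difference of each member was 0.57 or more. The thalamic markers are themselves measured in the same libraries, and their part in the Zic differences was not tested.

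**Figure D2:**
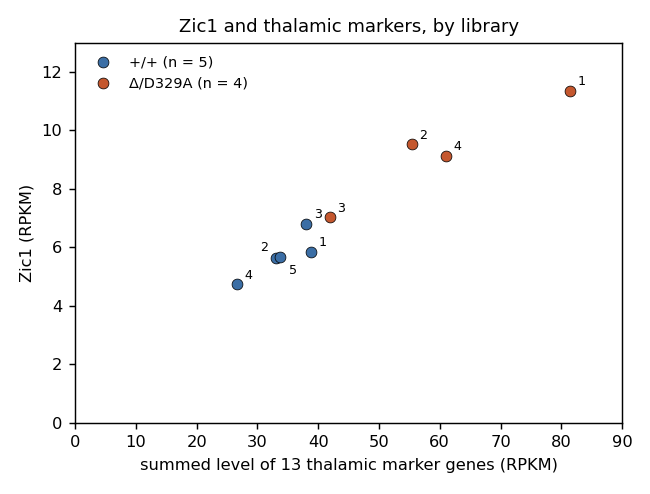
Zic1 level (RPKM) against the summed level of 13 thalamic marker genes (RPKM) in each RNA-seq library, with +/+ in blue (n = 5) and Δ/D329A in orange (n = 4) and the replicate number beside each point. Zic1 tended to be higher where the thalamic sum was higher, from 4.75 RPKM at a sum of 26.6 to 11.4 RPKM at a sum of 81.4.

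Markers of other tissues near the hypothalamus or with known Zic expression did not separate the genotypes when summed, although single genes did. The summed levels of the markers of the medial habenula, the septum, cerebellar granule cells, the meninges, the choroid plexus and the ependyma overlapped between +/+ and Δ/D329A. In the medial habenula list 1 of 9 genes tested was called, Pou4f1, which had a log2 difference of 5.28 (adjusted p = 0.000607, limma), while the sum of the list was 19.8 to 41 RPKM in +/+ and 20.2 to 26.7 RPKM in Δ/D329A. Vav2 of the same list was higher without overlap as well (0.56), and of the 7 choroid plexus markers 1 was higher (1.82) and 1 lower (-0.43) without overlap, with no call. Over all genes tested 1.78% were higher without overlap, and the share that was lower is not given here, so that single lower genes cannot be set against it. None of the 7 septal, 5 cerebellar, 16 meningeal, 7 choroid plexus and 6 ependymal markers tested was called, and neither was any of the 16 hypothalamic markers, of which 1, the hypothalamic transcription factor Sim1, was lower without overlap (-0.82, adjusted p = 0.155, limma).

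In the Hedgehog pathway, in which GLI factors act, 0 of 17 genes tested were called and the median difference was -0.01. The largest differences were those of the ligand-binding inhibitor Hhip (-0.34) and the co-receptor Cdon (-0.19) on the negative side and of the kinase gene Stk36 (0.22) and of Disp1 (0.20), which releases the ligand, on the positive side, all with overlapping genotypes. Of the 6 GLI and GLIS relatives of the ZIC factors none was called, and the lowest and highest log2 differences were those of Gli1 and Gli2 (-0.39 and -0.38) and of Glis3 and Glis1 (0.22 and 0.17). Of 18 genes of the neural plate border and dorsal neural tube, 7 were tested and 0 were called. Msx1, a homeobox factor of the dorsal midline, had the largest difference of that list at 1.30 (SE 0.40, adjusted p = 0.355, limma), and Lmx1b was at 0.63, Bmp4 at -0.60 and Lmx1a at -0.46, each with overlapping genotypes. Atoh1 and Wnt3a had no read in any of the 9 libraries.

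Few genes lie near the Zic loci. Within 500 kb of Zic1 and Zic4 the table held only Gm5620, which had too few reads to be tested. Within 500 kb of Zic2 and Zic5 it held 14 genes, of which 10 were tested and 0 called, with log2 differences from -0.70 to 0.63. Pcca, a mitochondrial carboxylase subunit gene 54472 bp from the locus, was higher in every Δ/D329A library than in any +/+ library, by 0.34 (SE 0.12, adjusted p = 0.355, limma). The same held for 1.78% of all genes tested. Clybl, 54563 bp away on the other side, differed by 0.37 with overlapping genotypes. 2610035F20Rik, which lies between the starts of Zic5 and Zic2, had between 0 and 4 reads per library.

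The genes whose level followed each member most closely over the 9 libraries, once the mean of each genotype was subtracted, differed between members. For Zic1 they were Lhx9, with a Pearson r of 0.963, Ntng1 with 0.961 and Exph5 with 0.960. Lhx9 is a LIM homeobox gene of the developing diencephalon, and Ntng1, an axon guidance gene, belongs to the thalamic list above. For Zic2 they were 4930578N16Rik (0.944), Gm10430 (0.914) and Aurka (0.910), and for Zic4 they were Gm12122 (0.956), Gm13189 (0.937) and D16Ertd472e (0.924). For Zic5 they were Gm11019 (0.908), Usp28 (0.875) and Zfp932 (0.865). Among the members themselves r was highest between Zic4 and Zic5, at 0.801, and lowest between Zic1 and Zic5, at 0.153. Each gene named was the closest of all genes tested over only 9 libraries, whose depth all genes share, and the values are a description only.

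At the promoters the Zic genes had high H3K27me3 in +/+, at 9.19 to 10.5 times the median of all promoters and at the percentiles 97.5 to 98.3. H3K27me3 was lower in Δ/D329A at all 4, by 0.60 to 0.70 on the log2 scale, and none was called (limma on log2 of RPM plus 0.1, adjusted p of 0.530 or more). RPM stands for reads per 2000 bp tile, scaled to library size (reads per 1000000 mapped uniquely). Of 25952 promoters 0 were called for H3K27me3 (limma, 0.0%), and edgeR called 240 of the 15661 it tested, 167 higher and 73 lower. The unadjusted p was under 0.05 and the difference negative for 2 of 4 Zic genes, where this held for 4.53% of all promoters, or 1175. The median difference was -0.65 over the Zic genes and -0.02 over all promoters. Without Δ/D329A replicate 2 the differences were -0.36 for Zic1, -0.36 for Zic2, -0.31 for Zic4 and -0.33 for Zic5.

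Zic1 had a promoter H3K27me3 of 4.66, 4.38 and 4.29 RPM in +/+ and of 3.50, 1.78 and 3.40 RPM in Δ/D329A. Zic2 had 4.47, 5.40 and 4.76 RPM in +/+ and 3.90, 2.22 and 3.66 RPM in Δ/D329A. Neither overlapped between the genotypes, and the exact permutation p was 0.1, the smallest that 3 against 3 allow. At the start in the gene table Zic4 and Zic5 overlapped, because replicate 1 of Δ/D329A had 5.11 and 4.84 RPM there. Over all promoters 7.31% were lower in Δ/D329A without overlap. At the RefSeq start Zic4 had 4.85, 4.89 and 4.49 RPM in +/+ and 3.87, 1.60 and 3.27 RPM in Δ/D329A, without overlap. Replicate 2 of Δ/D329A was the lowest library at every Zic promoter.

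H3K4me3 at the RefSeq starts was higher in Δ/D329A on average for all 4 genes, by 0.70 to 0.93 on the log2 scale, and no gene was free of overlap or called (adjusted p = 1 for all, limma). The windows of Zic1 and Zic4 at these starts overlap, so that their values are not separate measurements. For Zic1 it was 3.79, 4.02 and 9.00 RPM in +/+ and 4.20, 23.2 and 9.97 RPM in Δ/D329A. For Zic2 it was 10.6, 7.08 and 11.4 RPM in +/+ and 9.82, 27.4 and 13.7 RPM in Δ/D329A. For Zic4 it was 5.50, 7.12 and 16.1 RPM and 6.71, 34.9 and 18.3 RPM. For Zic5 it was 3.29, 2.53 and 4.73 RPM and 3.98, 11.6 and 4.78 RPM. The +/+ means lay at the percentiles 44.6 (Zic5) to 55.2 (Zic2) of all promoters at RefSeq starts. Replicate 2 of Δ/D329A carried most of the difference, and replicate 1 lay near the +/+ libraries at each of these genes. Without replicate 2 the difference was 0.32 for Zic1, 0.29 for Zic2 and 0.35 for Zic5. None of the 20661 promoters at RefSeq starts was called for H3K4me3 (limma, 0.0%). At the starts in the gene table edgeR called 55 of the 17654 it tested, 13 higher and 42 lower. An unadjusted p under 0.05 (limma) was seen at 0 of 4 Zic genes and at 691 of the 20661 promoters at RefSeq starts (3.34%).

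H3K36me3 at the promoters of Zic1, Zic2 and Zic5 was low in +/+, at 0.098, 0.049 and 0.079 RPM on average and the percentiles 10.1, 4.2 and 6.81 of all promoters. That of Zic4 was 0.450 RPM at the start in the gene table, at the percentile 75.4, but this window lies within the annotated span of Zic1. At the RefSeq start of Zic4 it was 0.220 RPM, at the percentile 43.1. The log2 difference in H3K36me3 was 0.32 for Zic1, 1.29 for Zic2 and 1.43 for Zic5. It was 1.13 for Zic4 in the window within Zic1. None was called (adjusted p from 0.718 to 0.827, limma), where 6 of 25952 promoters were (0.0231%). The unadjusted p was under 0.05 with a positive difference for 2 of 4, where this held for 5.18% of all promoters. Zic2 had 0.022, 0.047 and 0.079 RPM in +/+ and 0.170, 0.270 and 0.367 RPM in Δ/D329A. Zic2 and Zic5 were higher in Δ/D329A without overlap, as were 8.99% of all promoters. At the levels of Zic1, Zic2 and Zic5 a promoter held few reads of the mark, and for Zic4 the difference depended on the start that was used, being 0.33 at the RefSeq start.

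**Figure D3:**
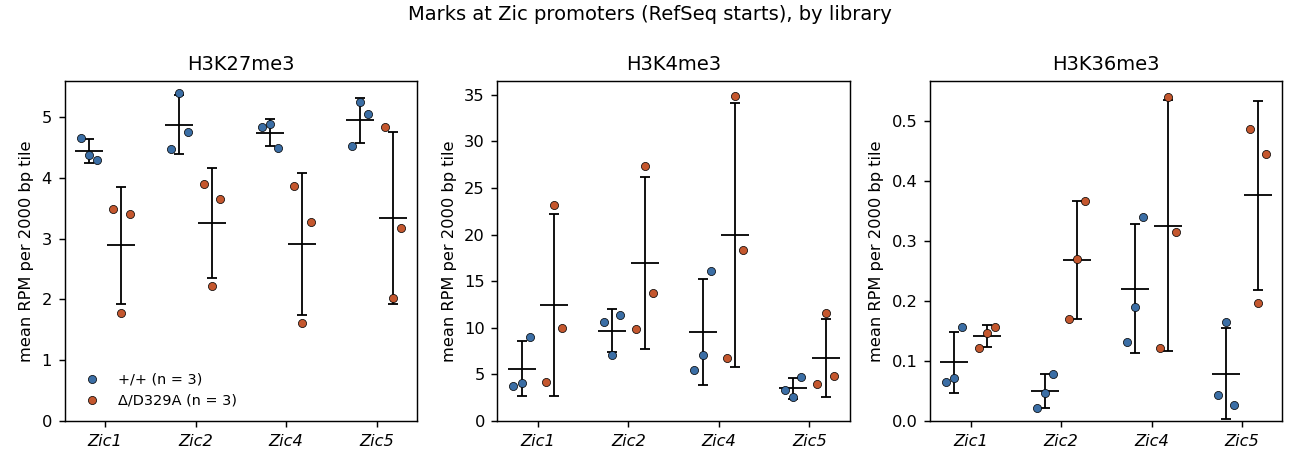
H3K27me3, H3K4me3 and H3K36me3 at the promoters of the 4 Zic genes (RefSeq starts, mean RPM per 2000 bp tile) by library, with +/+ in blue and Δ/D329A in orange (n = 3 each). Points are libraries in the order of their replicate numbers, horizontal bars are means and vertical bars are 1 SD. The windows of Zic1 and Zic4 overlap. The middle Δ/D329A point, replicate 2, is the lowest in H3K27me3 and the highest in H3K4me3 at each gene.

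Over the gene bodies H3K27me3 was lower in Δ/D329A at all 4 genes, with log2 differences of -0.90 for Zic1, -0.76 for Zic2, -0.65 for Zic4 and -0.58 for Zic5 (adjusted p from 0.356 to 0.434, limma). None was called, where 2 of 23654 bodies were (0.00846%). The unadjusted p was under 0.05 for 2 of 4, where 9.34% of all bodies had such a p with a negative difference. All but Zic5 were lower without overlap, as were 14.7% of all bodies, and the median difference over all bodies was -0.07. The +/+ level lay at the percentiles 97.6 to 99.3 of all bodies. Without Δ/D329A replicate 2 the differences were -0.56 for Zic1, -0.47 for Zic2, -0.30 for Zic4 and -0.28 for Zic5.

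H3K36me3 over the bodies was higher in Δ/D329A for Zic4 and Zic5 without overlap. Zic4 had 0.254, 0.256 and 0.331 RPM in +/+ and 0.546, 0.719 and 0.595 RPM in Δ/D329A, a log2 difference of 0.92 (SE 0.14, adjusted p = 0.223, limma). Zic5 differed by 0.88 at the same adjusted p. Zic1 and Zic2 differed by 0.99 and 0.35 with overlapping genotypes, and by 0.52 and 0.0040 without Δ/D329A replicate 2. No body was called for H3K36me3 (limma, 0 of 23654, 0.0%). The unadjusted p was under 0.05 for 2 of 4 Zic genes, both higher, where this held for 1089 bodies (4.6%), and 7.14% of all bodies were higher in Δ/D329A without overlap. The +/+ levels lay at the percentiles 11.3 (Zic5) to 46.6 (Zic2) of all bodies. The Δ/D329A means of Zic4 and Zic5, 0.620 and 0.588 RPM, lay below the median +/+ body of 0.791 RPM, and those of Zic1 and Zic2, 1.15 and 1.05 RPM, lay above it.

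Taken over each whole locus with 10 kb on either side, H3K27me3 was lower and H3K36me3 higher in every Δ/D329A library than in every +/+ library at both Zic1-Zic4 and Zic2-Zic5. Such separation was common in windows of the same size. Of all autosomal windows as long as Zic1-Zic4, 12.4% were lower in H3K27me3 and 9.66% higher in H3K36me3 without overlap, and of the 937 with an H3K27me3 of 3 times the tile median or more, 22.6% and 41.8%. For the length of Zic2-Zic5 the shares were 12.2% and 9.28% of all windows and 21.3% and 38.4% of the 1186 with that much H3K27me3. At Zic1-Zic4 the mean H3K27me3 was 6.52, 6.38 and 5.44 RPM in +/+ and 5.24, 2.36 and 4.18 RPM in Δ/D329A. The means were 6.11 ± 0.59 and 3.93 ± 1.46 RPM (SD, n = 3 each), a ratio of 0.642 (exact permutation p = 0.1, the smallest possible). At Zic2-Zic5 it was 4.76, 5.22 and 4.84 RPM in +/+ and 4.0, 2.20 and 3.35 RPM in Δ/D329A, a ratio of 0.644 (exact permutation p = 0.1). The loci lie on different chromosomes, and the order of the Δ/D329A libraries was the same at each, with replicate 2 lowest and replicate 1 highest.

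H3K36me3 over Zic1-Zic4 was 0.253, 0.247 and 0.315 RPM in +/+ and 0.543, 0.726 and 0.615 RPM in Δ/D329A, a ratio of 2.31. The ratio was 1.89 at Zic2-Zic5 (exact permutation p = 0.1 at each). The H3K36me3 libraries also differed over the genome. The tenth of gene bodies with the least H3K36me3 had a median of 0.138 to 0.157 RPM in +/+ and 0.164 to 0.182 RPM in Δ/D329A. The tenth with the most had 2.37 to 2.40 RPM in +/+ and 2.12 to 2.25 RPM in Δ/D329A. The part of this in the Zic values was not tested. The +/+ levels at the Zic loci lay below the median of all autosomal tiles, which was 0.523 to 0.590 RPM in the 6 libraries, whereas Δ/D329A replicates 2 and 3 lay above it at both loci. H3K4me3 overlapped between the genotypes at both, with ratios of 2.17 and 1.76 and exact permutation p-values of 0.2 and 0.4. Input differed by ratios of 1.05 and 1.01, and at Zic1-Zic4 it too did not overlap between the genotypes (0.827 ± 0.022 and 0.872 ± 0.014 RPM, SD, n = 3 each), as was true of 4.62% of all windows of that length and 10.9% of those high in H3K27me3.

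Single H3K27me3 tiles showed where the difference lay. Of 92226 tiles of the genome with enough H3K27me3 to be tested, 1.55% were called, 0.981% lower in Δ/D329A (905 tiles) and 0.565% higher (521 tiles), or 1680 lower and 522 higher after median centring. At Zic1-Zic4, 27 of 51 tiles tested were called lower and 0 higher, and at Zic2-Zic5 25 of 42 and 0 (limma, adjusted p under 0.05). Every tile tested at both loci had a negative difference, and 27 and 31 tiles were lower in Δ/D329A without overlap, where 8.11% of all tiles tested were. The medians were -0.68 and -0.64 on the log2 scale, against 0.03 over all tiles tested. Neighbouring tiles share reads, since they are 2000 bp long and start every 1000 bp, so that these counts are not counts of independent sites.

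Within Zic1-Zic4 the called tiles were 5 of 7 tested in the span of Zic1, 10 of 27 in that of Zic4, which overlaps it, and 15 of 20 in the 10 kb on either side. The tile with the smallest p, named after the values were seen, was chr9:91358001-91360000 at the 3′ end of Zic1. It had 4.47, 4.86 and 4.61 RPM in +/+ and 2.89, 1.22 and 1.57 RPM in Δ/D329A, a log2 difference of -1.34 (SE 0.21, adjusted p = 5.5e-05, limma). Within Zic2-Zic5 the called tiles were 4 of 4 in the span of Zic2, 1 of 8 in that of Zic5, 8 of 10 between their starts and 12 of 20 in the 10 kb on either side. The tile with the smallest p there was chr14:122467001-122469000, between the starts of both genes, with a log2 difference of -0.84 (SE 0.17, adjusted p = 0.0021, limma).

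The number of called tiles rested on few libraries. At Zic1-Zic4 it was 7 without +/+ replicate 1, 9 without +/+ replicate 2, 9 without Δ/D329A replicate 2 and 47 without Δ/D329A replicate 1. At Zic2-Zic5 it was 10, 8 and 14 without each +/+ replicate in turn and 9 without Δ/D329A replicate 2. The direction did not rest on them. Without Δ/D329A replicate 2 the median differences were -0.37 at Zic1-Zic4 and -0.43 at Zic2-Zic5, with 50 of 51 and 42 of 42 tiles negative.

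**Figure D4:**
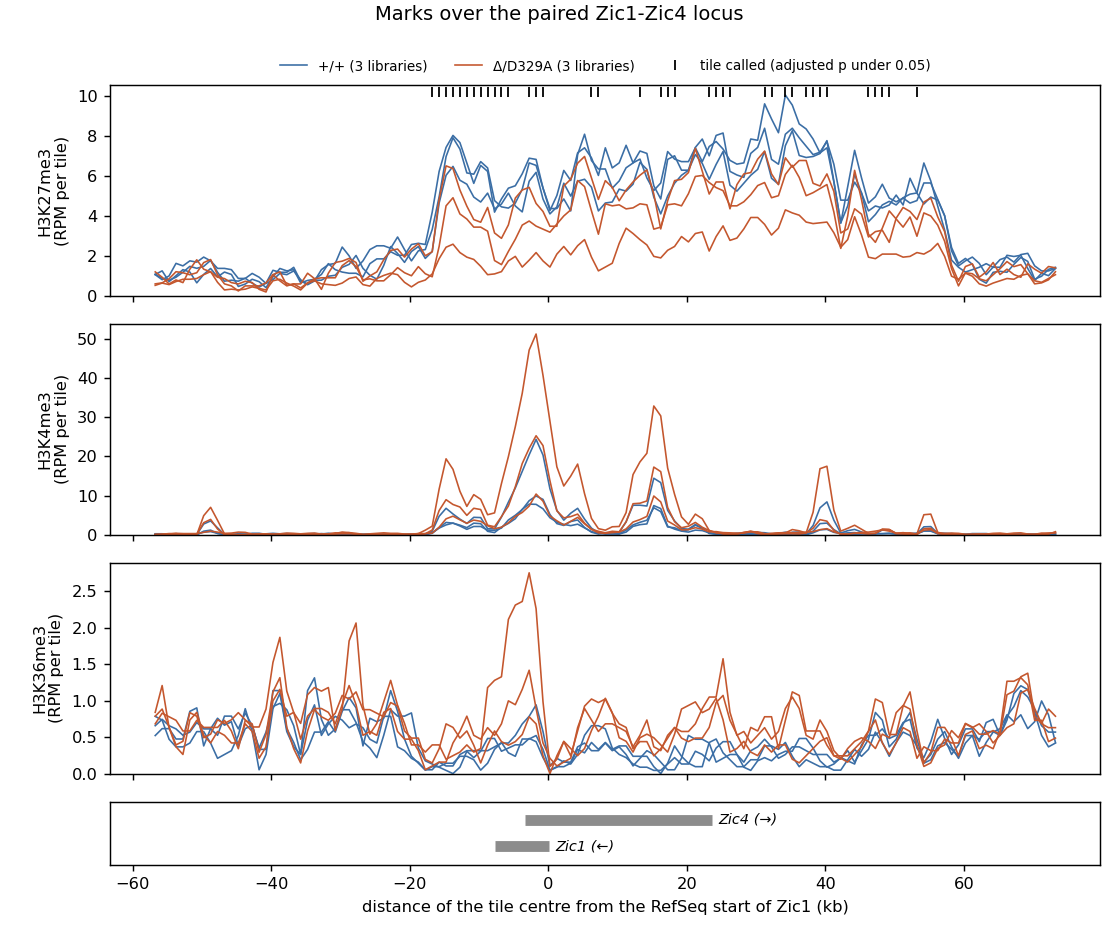
H3K27me3, H3K4me3 and H3K36me3 (RPM per 2000 bp tile) over Zic1-Zic4 and 50 kb on either side, by distance from the RefSeq start of Zic1 (kb), with 3 +/+ libraries in blue and 3 Δ/D329A libraries in orange, ticks above called tiles, and gene spans below. H3K27me3 forms a broad block over both genes with 1 Δ/D329A library, replicate 2, lowest, while H3K4me3 forms sharp peaks that are highest in the same library.

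The H3K4me3 peaks kept their place in both genotypes. The highest H3K4me3 tile was chr9:91363001-91365000 at Zic1-Zic4 (14.0 RPM in +/+ and 29.0 RPM in Δ/D329A on average) and chr14:122477001-122479000 at Zic2-Zic5 (17.7 and 27.3 RPM). The highest H3K27me3 tile was likewise the same in both genotypes at each locus, and at Zic1-Zic4 it lay 31232 bp from the start of Zic1, downstream of Zic4.

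**Figure D5:**
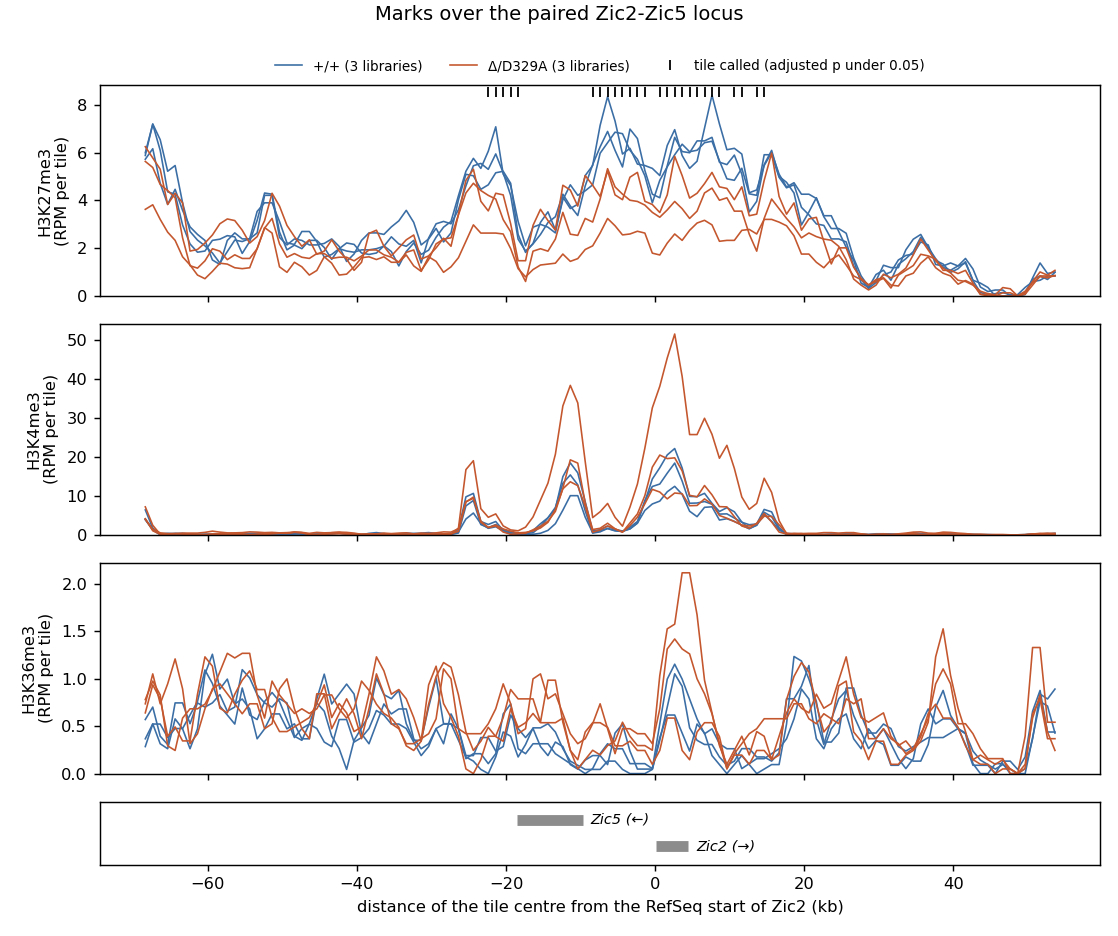
The same 3 marks over Zic2-Zic5 and 50 kb on either side, by distance from the RefSeq start of Zic2 (kb), with 3 +/+ libraries in blue and 3 Δ/D329A libraries in orange. The ticks of called tiles lie over Zic2, on either side of it and beyond the 3′ end of Zic5, and H3K4me3 is highest within Zic2.

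The H3K27me3 domain, taken as the longest run of tiles at 3 times the library median or more that overlapped a locus, was 93, 84 and 83 kb long at Zic1-Zic4 in +/+ and 83, 49 and 75 kb in Δ/D329A. At Zic2-Zic5 it was 106, 64 and 140 kb in +/+ and 66, 30 and 60 kb in Δ/D329A. The genotypes overlapped at each locus (exact permutation p = 0.2 at both). Gaps of at most 2 tiles were bridged, and a run broke where more neighbouring tiles fell under the threshold. Length and level were thus not independent here. Δ/D329A replicate 2 had 2 runs at each locus, of which the longer is given.

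Δ/D329A replicate 2 was the lowest library in H3K27me3 at the Zic loci and the highest in H3K4me3. At the promoters with the most of each mark over the genome it was not the lowest in H3K27me3 but was the highest in H3K4me3. Over all autosomal tiles its median H3K4me3 was 0.158 RPM, within the range of 0.129 to 0.376 RPM of the 6 libraries. In the tenth of promoters with the most H3K27me3 it had a median of 3.06 RPM, where the other 5 libraries had 2.97 to 3.64 RPM. The corresponding H3K4me3 value was 36.4 RPM, where the others had 24.5 to 34.2 RPM, the lowest being Δ/D329A replicate 1. The median over all H3K27me3 tiles tested was between 2.22 and 2.49 RPM in the 6 libraries.

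The libraries also fell into sets by their mitochondrial signal, which was higher in +/+ replicate 3 and Δ/D329A replicates 2 and 3 than in the other 3 libraries, both for H3K27me3 (18.1 to 36.8 against 4.07 to 10.3 RPM) and for H3K4me3 (29.5 to 44.6 against 14.8 to 19.2 RPM). H3K4me3 at Zic1 followed these sets. In the low set it was 3.79 and 4.02 RPM in +/+ and 4.20 RPM in Δ/D329A, and in the high set 9.00 RPM in +/+ and 23.2 and 9.97 RPM in Δ/D329A. H3K27me3 over Zic1-Zic4 was lower in Δ/D329A within both sets, at 6.52 and 6.38 against 5.24 RPM in the low set and at 5.44 against 2.36 and 4.18 RPM in the high set. With the set as a block, 12 tiles were called lower at Zic1-Zic4 and 16 at Zic2-Zic5.

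Marks at the promoters of the 13 thalamic markers were compared in the same libraries. Their summed H3K4me3 was 111, 102 and 124 RPM in +/+ and 81.7, 162 and 95.5 RPM in Δ/D329A, highest in Δ/D329A replicate 2, and 4 of 13 promoters had a positive difference. Their summed H3K27me3 was 28.9, 30.6 and 29.2 RPM in +/+ and 28.9, 22.9 and 29.0 RPM in Δ/D329A, lowest in the same replicate (exact permutation p = 0.3). Of these 13 promoters, 5 had a positive and 8 a negative H3K27me3 difference, with a median of -0.07, and 1 was lower without overlap. Their summed H3K36me3 was higher in Δ/D329A without overlap, with a ratio of 1.33 (exact permutation p = 0.1). The sums of the hypothalamic and medial habenula lists were higher as well, with ratios of 1.17 and 1.12 and overlapping genotypes. Of all single promoters 8.99% were higher in H3K36me3 without overlap. That promoter was Gbx2, the thalamic marker with the most H3K27me3. There H3K27me3 was 6.20, 5.73 and 6.54 RPM in +/+ and 3.63, 4.22 and 3.76 RPM in Δ/D329A. Of all promoters 7.31% were lower in H3K27me3 without overlap. Without Δ/D329A replicate 2, the mean H3K27me3 over Zic1-Zic4 remained lower in both other Δ/D329A libraries than in any +/+ library, and the share of thalamic cells in these marks was not tested.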

How the data were processed

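Expression was taken from 9 RNA-seq libraries and histone marks from 24 ChIP-seq libraries; bisulfite data were left aside. RNA-seq values are log2 RPKM as deposited: per the study's methods, the authors aligned trimmed reads to GRCm38 by HISAT2 and summed them over merged exons in SeqMonk, correcting for exon length, and omitted 1 further Δ/D329A library as of low quality. ChIP-seq values are signal as deposited, for which the authors aligned reads by Bowtie and counted them in 2000 bp windows stepped by 1000 bp, scaled to library size, with no input subtraction. A gene without a read is deposited at the value of 0.9 reads.

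Genes at 0.1 RPKM or more in at least 4 libraries were tested with limma 3.58.1 (trend, two-sided) on the log2 values. Promoters (1500 bp before to 500 bp after a start), gene bodies and H3K27me3 tiles at 3 times the median signal or more were tested likewise on log2 of RPM plus 0.1. P-values were adjusted by the Benjamini-Hochberg method over all features and called under 0.01 for RNA-seq and 0.05 for ChIP-seq. Single values were compared by exact permutation tests. Whole reads recovered from the values (within 0.02 reads for all 25965 genes) went into edgeR 4.0.16 and DESeq2 1.42.0 as alternatives. The scripts were tested on simulated data.

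The members and the gene lists were chosen with earlier results of these data known. Genes named with values were the 4 Zic genes, their neighbours within 500 kb, the 3 genes closest to each member by Pearson r and, for each pathway list, the 2 largest differences in either direction. Other genes (Pou4f1, Vav2, Sim1 and Gbx2), the ratio to thalamic markers and the shares of windows of the size of each locus were added after the values were seen. Starts from RefSeq and the runs without the replicate block were added after seeing the data. Promoter sequence was matched for 3 of 4 members, and the Zic4 stretch lay within annotated exons. Some items are not reported here.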

Additional observations from a re-analysis of the deposited data

How the results depend on the processing

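Direction was kept for all 4 Zic genes in every alternative in which they were tested. This held in RNA-seq (Zic1 0.57 to 0.80, Zic5 0.34 to 1.21 on the log2 scale) and in H3K27me3 at promoters (-1.07 to -0.31) and bodies (-1.21 to -0.28). It also held in H3K36me3 at promoters (0.06 to 1.76) and bodies (0.0040 to 1.42), where the lowest values, those of Zic1 promoters and of Zic2 bodies, were close to 0. Zic5 was not tested in RNA-seq under the filter at 0.5 RPKM. For promoter H3K36me3, Zic1, Zic2 and Zic5 were not tested by edgeR or among promoters at or above the median. The number of members called changed from 0 to 1 with DESeq2 in RNA-seq (Zic1), where 249 of 22013 genes were called. For H3K4me3 among promoters at or above the median it changed to 2 (Zic1, Zic4), where 60 of 12976 were called, 12 higher and 48 lower. For promoter H3K27me3 with edgeR it changed to 2 (Zic1, Zic2), where 240 of 15661 were called, 167 higher and 73 lower. For promoter H3K36me3 with edgeR it changed to 1 (Zic4, at the start in the gene table, the only member tested), where 8 of 14848 were called. The cause of these changes was not tested. The ratio of input reversed at Zic2-Zic5 to 0.999 with 50 kb flanks (0.979 to 1.05 with 1 library left out).

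Whether equal replicate numbers pair animals could not be told from these values. The correlation of same-numbered deviations was 0.14, -0.05, -0.05 and -0.05 in RNA-seq and 0.07, -0.26 and 0.23 for H3K4me3. It was 0.05, 0.08 and 0.01 for H3K27me3 and 0.01, -0.0044 and 0.07 for H3K36me3. Differently numbered libraries had -0.19 to 0.15 in RNA-seq, -0.41 to 0.35 for H3K4me3 and -0.07 to 0.06 for H3K36me3. For H3K27me3 they had -0.06 to 0.0071, below every same-numbered value. With the replicate number as a block, 48 tiles were called at Zic1-Zic4 and 30 at Zic2-Zic5, and 0 members were called in RNA-seq or at promoters. Blocking by mitochondrial set gave 12 and 16 tiles, and leaving out 1 library gave 7 to 47 and 8 to 30. Over all genes the count of calls was 19 by limma, 32 after quantile normalization, 34 after median centring, 74 by edgeR and 249 by DESeq2. Over all H3K27me3 tiles it was 1426, 2202 after median centring and 2723 with the replicate block. Median centring moved the median over all promoters from -0.07 to 0.14 for H3K4me3 and from 0.11 to -0.10 for H3K36me3. No member had a library that stood apart by a rule on the gap over the range in the groups of 4 or 5 that were examined. In groups this small the rule can find only extreme values. Without Δ/D329A replicate 2 the RNA-seq difference of Zic5 was 0.58, against 0.95 with all libraries. Zic5 rested on 21 to 73 reads per library, which limits its precision, and 3 against 3 animals cannot reach p under 0.1 in an exact test.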
